A study of Rattus norvegicus with 12 samples.

Results

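The troponin family was examined in neuron-enriched cultures from the cerebellum of 1-day-old rats. The members were the 8 troponin genes Tnnc1, Tnnc2, Tnni1, Tnni2, Tnni3, Tnnt1, Tnnt2 and Tnnt3, found by the gene name that the array files give to each probe. Together they had 10 of the 30367 gene probes of the array, 1 for each gene except Tnnt1 and Tnnt2, which had 2 each. RNA came from 6 control cultures, which received only the solvent, and from 6 cultures that received 1 µM acetamiprid (ACE), a neonicotinoid insecticide. Exposure ran from day 2 to day 16 in vitro, and all 12 arrays were made at day 16. The control and the ACE culture of a replicate number came from the same lot of cells, which pooled the pups of a litter, so the arrays form 6 pairs.

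Troponin is the calcium switch of striated muscle. Troponin C binds calcium, troponin I holds back the interaction of actin with myosin, and troponin T ties the complex to tropomyosin on the thin filament. Each subunit has forms that are typical of fast skeletal, slow skeletal or cardiac muscle. Tnnc2, Tnni2 and Tnnt3 encode the fast forms, Tnni1 and Tnnt1 the slow forms, Tnni3 and Tnnt2 the cardiac forms, and Tnnc1 encodes the troponin C of both slow and cardiac fibres. Immature skeletal muscle also makes Tnnt2 and Tnni1. The genes for troponin I and troponin T lie in pairs. In the RefSeq gene order of the GRCr8 assembly no protein-coding gene stood between Tnni3 and Tnnt1, 1 stood between Tnni1 and Tnnt2, and 5 stood between Tnni2 and Tnnt3.

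The array read each gene through a probe of 60 bases, and related forms had related probes. The probes of the 2 troponin C genes are shown because they came from the same stretch of the coding sequence, which holds the last calcium-binding loop. Capitals mark the bases that both probes share when they are aligned without gaps.

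Tnnc2 (rn4, chr3:155807460-155807519, minus strand): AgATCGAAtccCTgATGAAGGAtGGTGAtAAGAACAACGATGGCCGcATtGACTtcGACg
Tnnc1 (rn4, chr16:6642153-6642212, plus strand): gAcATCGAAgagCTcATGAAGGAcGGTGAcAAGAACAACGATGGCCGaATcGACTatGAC

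The 2 probes were identical at 48 of 59 aligned bases (81.4%), with a longest shared run of 17 bases. How far RNA of 1 troponin C gene bound the probe of the other was not tested. The troponin T genes offered a similar set, in which Tnnt3 is compared with the dimmer probes of Tnnt1 and Tnnt2. Here capitals mark the bases that all 3 probes share.

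Tnnt3 (rn4, chr1:202758664-202758723, plus strand): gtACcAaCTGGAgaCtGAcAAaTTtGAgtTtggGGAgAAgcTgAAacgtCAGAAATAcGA
Tnnt1 (rn4, chr1:68043171-68043230, plus strand): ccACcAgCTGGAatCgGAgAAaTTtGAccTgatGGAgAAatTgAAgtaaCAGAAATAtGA
Tnnt2 (rn4, chr13:48884921-48884980, plus strand): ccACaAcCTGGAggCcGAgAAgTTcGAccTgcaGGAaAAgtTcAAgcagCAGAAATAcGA

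Identity was 68.3% between the probes of Tnnt3 and Tnnt1, 66.7% between those of Tnnt3 and Tnnt2, and 75% between those of Tnnt1 and Tnnt2, with no shared run longer than 11 bases. The brighter probes of Tnnt1 and Tnnt2 lay elsewhere in their transcripts. Identity of the brighter Tnnt1 probe with the 3 probes above was at most 44.6%, and that of the brighter Tnnt2 probe was at most 40.9%. The 3 troponin I probes shared no more than 41.7% of aligned bases, with no run over 4 bases. The genome interval listed for the Tnni3 probe spanned 526 bases, more than the probe itself, so that this probe crosses an intron.

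The upstream sequences of the fast forms Tnnc2 and Tnni2 are shown because both genes were highest on the arrays with the highest levels of muscle markers, as described further on. The 250 bases before each gene's start are taken from RefSeq (GRCr8), with the letters CANNTG in capitals. This is the E-box, to which muscle regulators such as myogenin bind.

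Tnnc2 (GRCr8, chr3:173935340-173935589, minus strand): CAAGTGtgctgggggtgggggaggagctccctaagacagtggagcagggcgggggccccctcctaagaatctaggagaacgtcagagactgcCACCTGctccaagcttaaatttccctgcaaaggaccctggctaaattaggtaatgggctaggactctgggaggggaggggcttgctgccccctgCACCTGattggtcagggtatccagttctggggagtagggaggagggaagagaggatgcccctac
Tnni2 (GRCr8, chr1:207024240-207024489, plus strand): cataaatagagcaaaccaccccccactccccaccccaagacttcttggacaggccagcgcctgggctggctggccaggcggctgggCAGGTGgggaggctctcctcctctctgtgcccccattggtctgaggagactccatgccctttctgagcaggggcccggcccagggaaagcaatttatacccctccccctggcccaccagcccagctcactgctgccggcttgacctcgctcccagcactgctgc

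Windows of 300 bases around the start were found for 6 of the 8 genes, in 7 windows, and both strands were searched. An E-box was present in 6 of the 7 windows, against 72.1% of 33469 windows of the same length. In Tnnc2 the matches began 250, 158 and 64 bases before the start, and in Tnni2 the only match began 164 bases before it. The window of Tnni3 held none. MCAT (CATTCC) occurred in 1 window, that of Tnnt2, against 14.2% of all windows, and GATA in 4 windows, against 60.5%. The MEF2 and CArG motifs were found in no troponin window, and in 3.29% and 1.64% of all windows. These are matches of letters and do not show binding.

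Before the comparisons, 2 replicates have to be set apart. On 9 of the 10 troponin probes the 2 highest of the 12 arrays were those of control replicates 1 and 2. Among 23580 probes with complete values past the filter on low signal this order was seen in 2.35%. The exception was Tnni3, whose highest array was that of ACE replicate 1. These 2 arrays and that of ACE replicate 1 were the 3 highest on 9 of the 10 troponin probes, against 10.6% of the same probes, and here the exception was Tnnc1. Averaged over the 9 troponin probes that passed the filter, the log2 signal was 10.68 and 11.03 in control replicates 1 and 2 and between 7.98 and 8.95 in the other 4 controls. In ACE the same mean was 10.01 in replicate 1, 9.16 in replicate 2 and between 8.03 and 8.65 in the other 4 arrays. The level thus varied widely between replicates of the same group, and most troponin differences below are given also without replicate 2 or without replicates 1 and 2.

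Markers of skeletal muscle were highest on the same arrays as the mean of the troponin probes. Of 11 markers fixed for this tissue 10 passed the filter, 6 of them with signal well above background on all 12 arrays. Their mean log2 signal was 10.57 and 11.04 in control replicates 1 and 2, 8.73 in control replicate 6 and 6.73 to 7.48 in the other 3 controls. It was 9.72 in ACE replicate 1 and 6.76 to 7.17 in the other 5 ACE arrays. ACE replicate 2 thus stood with the low arrays for these markers (7.16), while its troponin mean was 9.16. Of these markers Mb, Des, Myog and Cacng1 were on the gene list that the study drew from these arrays. Ttn, which encodes the giant filament protein titin, was well above background on 4 arrays only, and Ckm, the muscle creatine kinase, was so on 4 of 12 arrays. The mean of the heart muscle markers was 5.83, 5.56 and 5.60 in control replicates 1, 2 and 6. In the other 3 controls it was 4.68 to 4.94. In ACE it was 5.68 in replicate 1, 5.41 in replicates 2 and 6 and 4.71 to 4.93 in the rest. The heart markers were thus also higher on several of these arrays, over a narrower range. Their signal was well above background on 12 arrays for Myh6 and Nppa, on 8 for Myl7 and on 7 for the transcription factor Nkx2-5. It was so on 6 for Nppb, on 2 each for the transcription factors Gata4 and Tbx5 and on 0 for Corin. Smooth muscle and pericyte markers lay between 8.49 and 9.18 in control and between 8.56 and 9.17 in ACE. The 5 neuron markers, which define the labelled cell type, were well above background on all arrays, with a mean of 10.70 to 11.37 in control and 10.78 to 11.37 in ACE. The part of muscle cells in the troponin values was not tested. In a bulk culture, fewer cells of a type and less RNA per cell cannot be told apart.

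**Figure D1:**
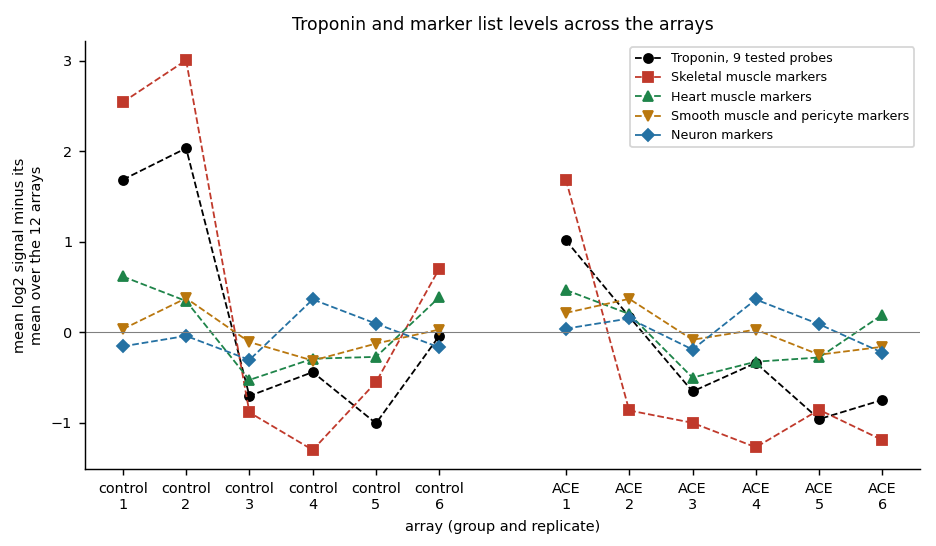
Mean log2 signal of the 9 tested troponin probes and of 4 marker lists on each of the 12 arrays (horizontal axis, group and replicate), each minus its own mean over the arrays. Troponin and skeletal muscle markers were both highest on control replicates 1 and 2 and ACE replicate 1, while the neuron markers lay within 10.70 to 11.37 before centring.

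Tnnc2, the calcium-binding subunit of fast fibres, had a log2 signal of 9.38 to 12.57 in control (median 10.05) and of 8.89 to 11.75 in ACE (median 9.94). The groups overlapped, and the high arrays were control replicates 1 (12.08) and 2 (12.57) and ACE replicate 1 (11.75). The mean difference, ACE minus control, was -0.51 ± 0.30 (SE, limma with the replicate block, adjusted p = 0.423). Tnnc2 was lower in 5 of 6 pairs, but the difference of pair 2 alone was -2.14, and the mean without replicate 2 was -0.19.

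Tnnc1, the calcium-binding subunit of slow and cardiac fibres, ranged from 8.03 to 10.92 in control (median 8.75) and from 7.73 to 9.45 in ACE (median 8.38). Its control arrays 1 and 2 were again the highest, at 10.50 and 10.92. The difference was -0.62 ± 0.26 (limma, unadjusted p = 0.0503, adjusted p = 0.302), which is the lowest p-value of the family in this fit. Unlike Tnnc2, its difference was spread over several pairs, with -1.17 in pair 1, -1.47 in pair 2 and -1.09 in pair 6. In the remaining pairs it lay between -0.29 and 0.29. The mean was -0.45 without replicate 2 and -0.27 without replicates 1 and 2.

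Tnni2, the inhibitory subunit of fast fibres, varied most among the tested troponin probes. Its log2 signal was 6.96 to 11.36 in control (median 7.72) and 6.80 to 10.39 in ACE (median 7.04). The control arrays stood at 10.68 and 11.36 for replicates 1 and 2, at 8.33 for replicate 6 and between 6.96 and 7.10 for the others. In ACE, replicate 1 stood at 10.39 and the other 5 arrays between 6.80 and 7.54. The mean difference was -0.96 ± 0.54 (SE, limma, adjusted p = 0.410). It was lower in ACE in 6 of 6 pairs, which gives the smallest p that an exact two-sided signed-rank test over 6 pairs can reach, 0.03125. Pair by pair the size was very uneven. Pair 2 differed by -3.82, or 14.1-fold, pair 6 by -1.44 and pair 1 by -0.28, while pairs 3, 4 and 5 differed by -0.16, -0.05 and -0.03. Without replicate 2 the mean was -0.39. Tnni2 was on the gene list that the study drew from these arrays, so its direction here is not independent evidence. The study also measured Tnni2 by qRT-PCR in the same RNA samples and did not name it among the genes whose changes failed there.

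Tnni1, the inhibitory subunit of slow fibres, could be followed on few arrays. Its signal was well above background in control replicates 1, 2, 3 and 6 and in ACE replicate 1, and it did not pass the filter. On these arrays the log2 signal was 9.98, 10.67, 4.21 and 7.84 in the controls and 7.88 in ACE replicate 1, and it was 1.64 to 3.01 on the other 7 arrays. Pair 1 was the only pair measured on both sides, and there Tnni1 was 4.27-fold lower in ACE. For the pairs in which only the control was measured, the ACE side was set to a stand-in value. This was the higher of the ACE value and the lowest signal well above background on that array. Tnni1 was then 177-fold lower in ACE in pair 2, 1.78-fold lower in pair 3 and 8.55-fold lower in pair 6. These folds depend on the stand-in value and are not strict bounds, since spots at background can exceed that lowest signal. In pairs 4 and 5 neither side was well above background and no fold is given. In a fit without the filter the difference was -2.99 ± 1.30 (SE, limma, adjusted p = 0.419), a value that rests partly on signal at background.

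Tnni3, the cardiac inhibitory subunit, showed the least variation. It had 10 spots on each array, and its log2 signal was 7.07 to 8.23 in control (median 7.52) and 6.90 to 8.31 in ACE (median 7.48). Replicates 1 and 2 were highest in both groups, at 8.17 to 8.31. The difference was -0.03 ± 0.07 (SE, limma, adjusted p = 0.856), lower in 3 of 6 pairs, and it was 0.03 without replicate 6.

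Tnnt3, the tropomyosin-binding subunit of fast fibres, ranged from 8.84 to 11.47 in control (median 9.90) and from 9.04 to 10.87 in ACE (median 9.94). Pair 2 differed by -1.46, from 11.47 to 10.01, and the other pairs by -0.34 to 0.29. The mean difference of -0.29 ± 0.22 (SE, limma, adjusted p = 0.538) was -0.06 without replicate 2 and 0.00117 without replicates 1 and 2.

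Tnnt1, the tropomyosin-binding subunit of slow fibres, was read by 2 probes. The brighter gave 9.09 to 12.26 in control (median 10.40) and 9.01 to 11.46 in ACE (median 10.28), with a difference of -0.35 ± 0.17 (SE, limma, adjusted p = 0.362). The dimmer gave 7.19 to 10.72 in control and 7.34 to 9.66 in ACE, with a difference of -0.24 ± 0.22 (limma, adjusted p = 0.601). After centring, the 2 probes followed each other closely across the arrays, with a root mean square difference of 0.16. Pairs 1 and 2 differed by -0.75 and -1.12 on the brighter probe and the other 4 pairs by -0.25 to 0.08. Without replicates 1 and 2 the brighter probe gave -0.06 and the dimmer 0.11.

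Tnnt2, the cardiac form that immature skeletal muscle also makes, was likewise read by 2 probes. The brighter ranged from 8.46 to 11.82 in control (median 9.34) and from 8.60 to 10.13 in ACE (median 8.88). Controls 1, 2 and 6 were high, at 11.35, 11.82 and 9.82, and in ACE only replicate 1 stood out. The difference was -0.79 ± 0.41 (SE, limma, adjusted p = 0.380), made of -1.22, -2.73 and -1.14 in pairs 1, 2 and 6 and of -0.03 to 0.24 in the others. The dimmer probe gave -0.77 ± 0.44 (limma, adjusted p = 0.424), and the root mean square difference between the 2 probes was 0.17. Without replicate 2 the brighter probe gave -0.40 and the dimmer -0.36.

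**Figure D2:**
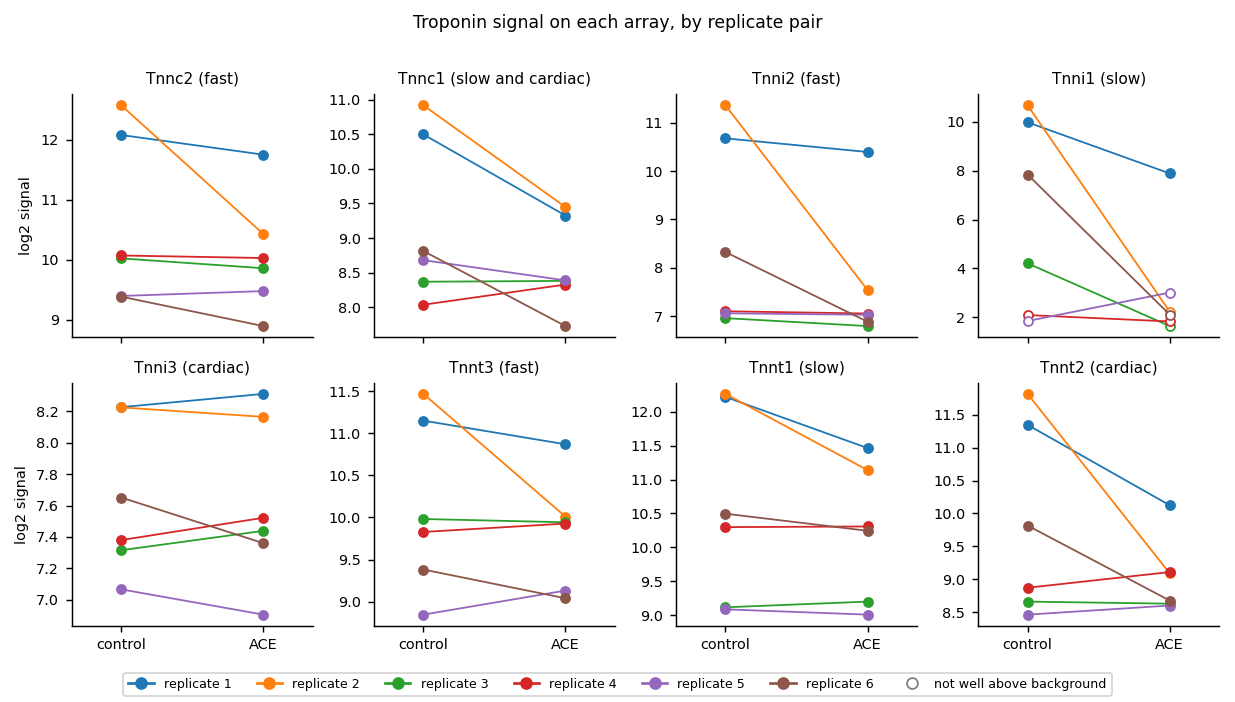
Log2 signal of the 8 troponin genes (brightest probe of each) in control and ACE, with a line for each of the 6 replicate pairs and open points where the signal was not well above background. Replicates 1 and 2 lay above the others in most panels, replicate 2 was near replicates 3 to 6 in ACE for Tnni2 (11.36 in control and 7.54 in ACE), and Tnni3 kept within 6.90 to 8.31.

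None of the 9 tested troponin probes passed an adjusted p of 0.05 in limma, and the same held for all 23796 tested probes (0 calls, 0%). At an unadjusted p of 0.05 the count was 0 of 9, against 16.6% of all tested probes. By the exact signed-rank test 1 of 9 probes, that of Tnni2, was lower in ACE in all 6 pairs, against 6.86% of all probes. With arrays scaled by their 75th percentile in place of quantiles, 2301 of the 2912 probes with 1 direction in all pairs were lower in ACE, compared with 1633 of 2755 here. With the log2 values that the authors deposited, the count was 1369 of 2763. The mean difference was below 0 for 9 of 9 troponin probes, against 52.2% of all probes. It was at least 1.5-fold lower for 4 of 9 (Tnnc1, Tnni2 and both Tnnt2 probes), against 1.06%. Without replicate 2 this last count was 0 of 9, against 1.24% of all probes, while the mean was still below 0 for 9 of 9, against 52.2%. Without replicates 1 and 2 the mean was below 0 for 7 of 9 probes, against 52.0%. The probes are not separate observations, since they share the same 12 arrays and, for Tnnt1 and Tnnt2, the same gene.

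Pair 2 was singled out after its values were seen. In this pair 8 of the 9 tested probes were lower in ACE by at least 1 log2 unit, against 0.731% of all probes, and the exception was Tnni3 at -0.06. Its share of the summed difference over the 6 pairs was 84.1% for Tnnt3, 69.5% for Tnnc2, 66.1% for Tnni2, 57.5% for Tnnt2, 53.2% for Tnnt1 and 39.6% for Tnnc1. In pair 2 the mean of the skeletal muscle markers also went from 11.04 in control to 7.16 in ACE, and that of the neuron markers from 10.97 to 11.16. Replicates 4 to 6 were the only ones scanned together. Within this batch the mean differences were -0.15 for Tnnc2, -0.36 for Tnnc1, -0.51 for Tnni2, -0.10 for Tnni3, 0.01 for Tnnt3, -0.11 for Tnnt1 and -0.25 for Tnnt2. The control array had place 1 and the ACE array place 3 on every slide, so that exposure and place on the slide cannot be told apart.

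**Figure D3:**
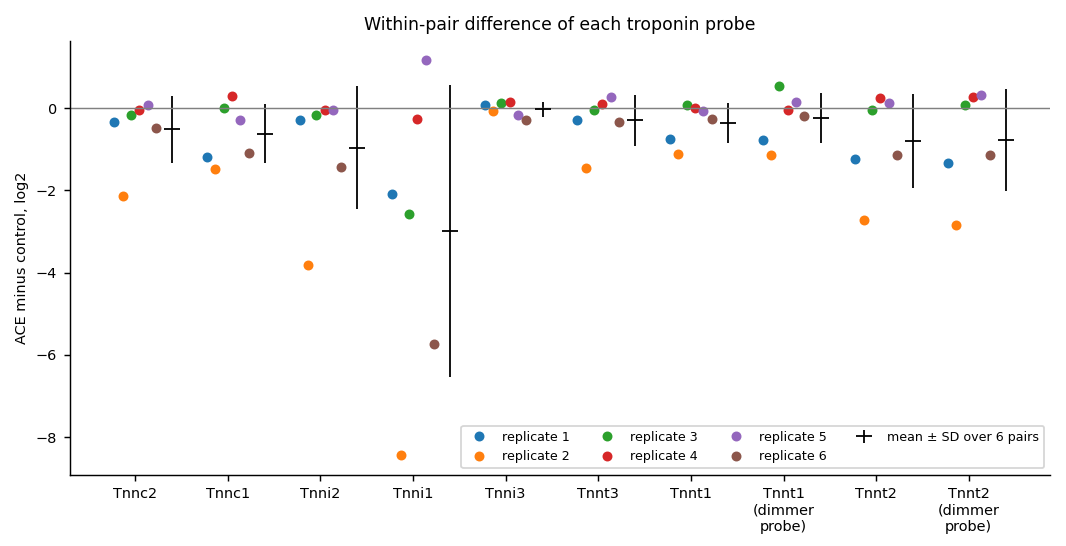
ACE minus control (log2) in each of the 6 pairs for the 10 troponin probes, with the mean and SD over the pairs as black bars. Pair 2 was the lowest for every probe except that of Tnni3, and it reached -3.82 for Tnni2; the Tnni1 values include arrays at background.

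**Figure D4:**
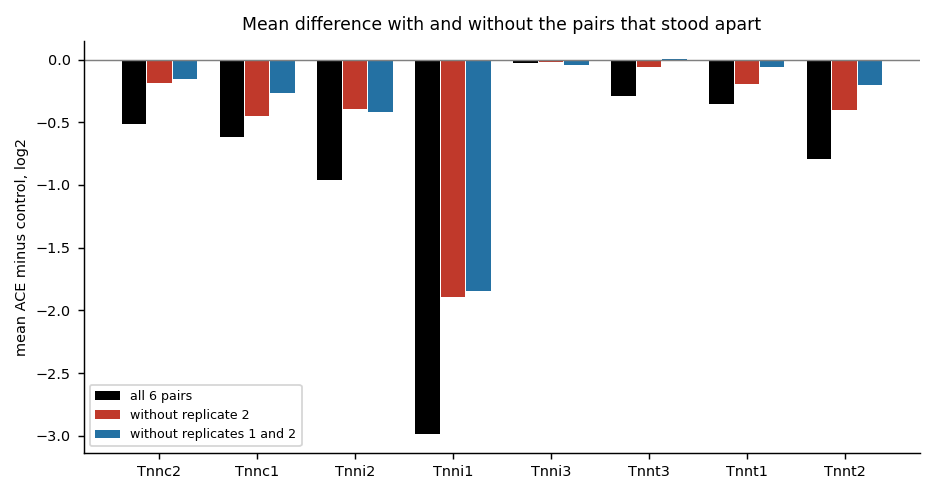
Mean ACE minus control (log2) of the 8 troponin genes over all 6 pairs, without replicate 2 and without replicates 1 and 2. Tnni2 went from -0.96 to -0.39 without replicate 2, and Tnnt3 from -0.29 to -0.06; the Tnni1 bars include arrays at background.

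Over the 12 arrays the spread of most members was large for this array. The SD of the log2 signal was 1.70 for Tnni2, 1.18 for Tnnt1, 1.17 for Tnnc2, 1.13 for Tnnt2, 0.97 for Tnnc1, 0.83 for Tnnt3 and 0.49 for Tnni3. Among the tested probes these lay at percentile 99.7 for Tnni2, 98.3 for Tnnt1, 98.2 for Tnnc2, 97.9 for Tnnt2, 96.2 for Tnnc1, 93.5 for Tnnt3 and 75.5 for Tnni3. The range over the 12 arrays was above 2 log2 units for 8 of the 9 tested troponin probes and for 14.4% of all tested probes. Part of this spread lay between replicates and part within pairs. For Tnnt1 the SD of the pair means was 1.19 and that of the pair differences 0.48, and for Tnni3 the values were 0.50 and 0.17. For Tnni2 they were close, at 1.525 and 1.495, and for Tnnt2 the pair differences had the larger SD (1.14 against 0.94).

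The forms were then set against each other within pairs, as a description without a test. The mean difference of the 3 fast forms was -0.59 ± 0.97 (SD, n = 6 pairs), from -2.47 in pair 2 to 0.11 in pair 5, and -0.21 without replicate 2. Tnnt1, the measured slow form, gave -0.35 ± 0.48 (-0.20 without replicate 2). The 2 cardiac forms gave -0.41 ± 0.60 (-0.21 without replicate 2), and Tnnc1 gave -0.62 ± 0.72 (-0.45 without replicate 2). The fast forms minus Tnnt1 came to -0.24 ± 0.64, lower in 4 of 6 pairs, and to -0.01 without replicate 2. The fast forms minus the cardiac forms came to -0.18 ± 0.47, and to -0.00018 without replicate 2. These differences between forms were smaller than their spread over the pairs. When Tnni1 was counted with Tnnt1 as the slow form the sign turned and fast minus slow was 1.08 ± 1.097, with 1 of 6 pairs below 0. That value rests on Tnni1, which was measured on both sides in pair 1 only.

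**Figure D5:**
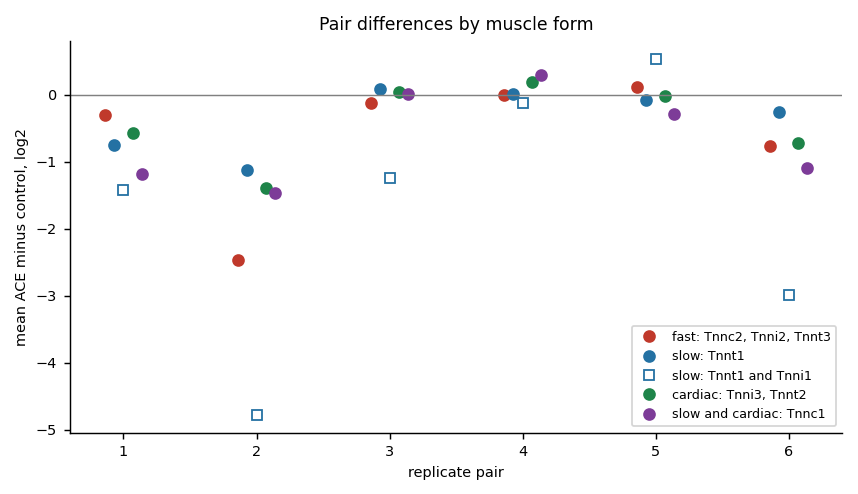
Mean ACE minus control (log2) of the fast forms, the slow forms (Tnnt1 alone, and with Tnni1 as open squares), the cardiac forms and Tnnc1 in each replicate pair. All forms were lowest in pair 2, where the fast forms stood at -2.47 and the cardiac forms at -1.39, and apart from the open squares all values of pairs 3, 4 and 5 lay between -0.29 and 0.29.

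The probes outside the family that were most like each troponin were sought by the root mean square difference of the centred log2 signal over the 12 arrays, among 16729 probes with a gene symbol. Within the family this measure ran from 0.40 between Tnnc2 and Tnnt3 to 1.27 between Tnni2 and Tnni3, over the brightest probes. The closest outside probe to Tnni2 was that of Actc1, the cardiac actin gene, at 0.17, followed by Csrp3, which encodes the muscle LIM protein, at 0.38 and Myl4, a myosin light chain of atrium and embryonic muscle, at 0.42. Tnnt2 was closest to Jsrp1, a protein of the sarcoplasmic reticulum, at 0.25, to Cacng1, a subunit of the muscle calcium channel, at 0.27 and to Ctxn3 at 0.31. For Tnnc2, which was nearer to Tnnt3, the closest outside probes were those of Ctxn3 at 0.43, Unc45b, a myosin chaperone, at 0.47 and Myog, the transcription factor myogenin, at 0.48. Tnnc1 had Scx, a transcription factor of tendon cells, at 0.28, Tpm2, the β-tropomyosin gene, at 0.37 and Myog at 0.38. For Tnnt3 the nearest were Cmya5, a muscle protein, at 0.33, Fam83f at 0.33 and S100a3 at 0.33. Tnnt1 had no outside neighbour nearer than 0.49, which was the olfactory receptor gene Olr53, and then Jsrp1 at 0.54 and Gstm3 at 0.56. The brighter Tnnt2 probe, at 0.51 from Tnnt1, was nearer than the last 2. The flatter Tnni3 had Aard, Als2cr12 and Ak8 at 0.14 to 0.15, distances that are small partly because its own SD was 0.49. All of these probes share the same 12 arrays, and no test was made. Actc1, Cacng1, Unc45b and Myog were also on the gene list that the study drew from these arrays.

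Other genes of the muscle fibre were read from 6 lists, each by the brightest probe of a gene. No gene on them passed an adjusted p of 0.05 in limma. The median difference over all tested probes was -0.005. Of the 19 thin filament partners, which include the actins, tropomyosins and leiomodins, 2 were lower and 1 was higher at an unadjusted p of 0.05 (16.6% of all probes), with a median difference of -0.07, or -0.03 without replicate 2. The lower ones were the leiomodin genes Lmod2 (-1.66 ± 0.66) and Lmod3 (-1.76 ± 0.53), which encode actin filament nucleators of striated muscle. Without replicate 2 they gave -0.97 and -1.32. Both were on the gene list that the study drew from these arrays, so their direction here is not independent evidence. The brightest partners by mean signal were the tropomyosin genes Tpm3 (0.07 ± 0.03), Tpm1 (-0.07 ± 0.04, or -0.03 without replicate 2) and Tpm4 (-0.0050 ± 0.045). Their ranges over the arrays were 0.40, 0.56 and 0.56. These tropomyosins are also made outside muscle.

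Of the 12 fast fibre genes 10 were tested, with a median of -0.22, or -0.09 without replicate 2, and only Mybpc2, a myosin-binding protein of fast fibres, had an unadjusted p under 0.05, at 0.13 ± 0.04. The 3 with the highest mean signal were Pvalb, which encodes parvalbumin and is also made by cerebellar neurons (-0.01 ± 0.06), and the myosin heavy chain genes Myh2 (-0.15 ± 0.13) and Myh1 (-0.05 ± 0.09). Without replicate 2, Pvalb gave 0.02 and Myh1 -0.03. Mylpf, the light chain of fast myosin and a gene of this list, gave -2.18 ± 1.09, lower in 4 of 6 pairs, and -1.13 without replicate 2. The 10 slow fibre genes had a median of -0.10 (-0.04, -0.06, -0.18 and -0.16 without replicates 1, 2, 3 and 4 in turn), with Myh7, the slow myosin heavy chain, lower at an unadjusted p of 0.05 (-0.45 ± 0.15). Atp2a2 and Casq2, a calcium pump and a calcium store protein, gave 0.0012 ± 0.028 and -0.12 ± 0.14, or -0.0050 and 0.0086 without replicate 2, and Mybpc1 gave -0.46 ± 0.19. Among the heart genes 9 of 14 were tested, with a median of -0.07 (-0.11 without replicate 1, -0.13 without replicate 3 and -0.04 without replicate 4), 2 lower and 1 higher at an unadjusted p of 0.05, against 16.6% of all probes. The 3 with the highest mean signal were Ryr2 (-0.04 ± 0.05), a calcium release channel that is also neuronal, Myl4 (-1.37 ± 0.73) and Myh6 (-0.31 ± 0.18). Without replicate 2, Myl4 gave -0.63 and Ryr2 -0.02.

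The developmental muscle genes had the lowest median of the 6 lists, -0.75 over 5 tested genes of 10, with 2 lower at an unadjusted p of 0.05, against 16.6% of all probes. Without replicate 2 that median was -0.45. The 3 with the highest mean signal were the myosin heavy chain genes Myh8 (-0.15 ± 0.11) and Myh3 (-2.79 ± 1.22) and Chrng (-1.18 ± 0.67), the fetal subunit of the muscle acetylcholine receptor. Myog, also on the gene list of the study, gave -0.75 ± 0.28 and was lower in 6 of 6 pairs. Leaving out replicate 2 gave -1.74 for Myh3, -0.45 for Myog and -0.45 for Chrng. The EF-hand relatives of troponin C, among them calmodulin, had a median of -0.02 over 10 genes, and leaving out any replicate but the fourth moved it by more than 1.5 times, within -0.032 to -0.0019. In this list 1 gene was lower at an unadjusted p of 0.05, Rcvrn, which encodes recoverin, at -0.21 ± 0.05 and in 6 of 6 pairs. Calm3 (0.05 ± 0.05), Calm2 (-0.07 ± 0.03) and S100b (-0.02 ± 0.02) ranged over less than 1 log2 unit on the 12 arrays. The SE values in these lists are from limma with the replicate block.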

How the data were processed

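The authors hybridised RNA of 12 cultures with 1 dye (Cy3) to Agilent whole rat arrays, and the deposited spot intensities were extracted per the file headers with Feature Extraction 11.0.1.1 for both arrays of replicate 1 and 11.5.1.1 elsewhere. These intensities had the background removed but were not scaled between arrays. The table of log2 values deposited by the authors, which was quantile normalised and centred on each probe's median, served as an alternative (correlation 0.997 to 0.999 per array with the values used here).

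Control spots and outlier spots were left out. The log2 intensity was quantile normalised between arrays with limma 3.58.1 in R 4.3.3, and the spots of a probe were averaged. Tested probes had to exceed the 20th percentile of their array on at least 7 arrays, with at least 4 complete pairs (23796 of 30367 probes). ACE was compared with control by limma (lmFit and eBayes, two-sided) with the replicate as a block and Benjamini-Hochberg adjustment over all tested probes, and by the exact signed-rank test over pairs. Same-numbered arrays came from the same lot of cells, and their deviations from the group means correlated at 0.449 to 0.912, against -0.439 to 0.390 for other numbers. Slide and replicate were the same factor. The replicates were 6 separate culture experiments. A gene was represented by its probe with the highest mean log2 signal, and its other probe is given beside it. The script was tested on simulated data.

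Of the 10 probe accessions, 9 matched RefSeq, all to the gene named in the files. Promoter windows came from RefSeq (GRCr8), and probe positions are those of the array files (rn4). The 75th percentile of the intensity ranged from 1803 to 4384 over the arrays, and 75.4% to 91.0% of gene spots were well above background. The number of arrays limits the precision. The 8 members, the gene lists and the tests were chosen with earlier results of these data known. All members are named, with the 3 tested genes of highest mean signal of each of the 6 partner lists, the 3 probes most like each member that was well above background on all arrays, Mylpf and Myog. Partner genes past an unadjusted p of 0.05 were in part named after their values were seen.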

Additional observations from a re-analysis of the deposited data

Results flagged for a closer look

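In ACE the array of replicate 1 stood apart from the other 5 on 3 troponin probes. The gap between the highest value and the next, divided by the range of the group, was above Dixon's critical value for 6 samples. The log2 signals were 10.39 for Tnni2, 7.88 for Tnni1 and 10.13 for the brighter probe of Tnnt2. Chance alone gives about 1 such value in 20 groups, and 20 groups of 6 arrays were examined, which share their arrays. No other array stood apart by this measure, including control replicate 2, since control replicates 1 and 2 were high together. For Tnni1 the other 5 ACE arrays were not well above background.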

How the results depend on the processing

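Of 135 troponin differences refitted with a test, 131 kept their direction and their side of the adjusted threshold, and 11 recomputed without a test kept their direction. Settings that changed only the filter or the block used the same values, so the differences could not change there. No troponin probe passed the adjusted threshold in any setting. The 4 that changed sign were Tnni3 without replicate 6 (range over the left-out replicates -0.061 to 0.026), Tnnt3 without replicates 1 and 2 (0.00117) and within the scan batch of replicates 4 to 6 (0.015), and the dimmer probe of Tnnt1 without replicates 1 and 2 (0.11). The settings without replicates 1 and 2 and within a scan batch, and the slow form from Tnnt1 alone, were chosen after seeing the data. With Tnnt1 alone, fast minus slow went from 1.08 to -0.24, and with normexp correction it was 0.38.

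The difference of Tnni2 lay between -1.15 and -0.39 when a replicate was left out, -0.39 being the value without replicate 2. At an unadjusted p of 0.05 in limma, 3956 probes passed with the replicate block and 81 without the block. With the replicate as a random block 5 probes, none of them a troponin, passed the adjusted threshold, compared with 0 when the block was fixed. In that setting Tnnc1 and Tnnt2 had unadjusted p-values of 0.0173 and 0.0332 and adjusted p-values of 0.214 and 0.263. At an unadjusted p of 0.05 there were 2 troponin probes also with normexp (Tnnc1 and Tnnt1), and 1 (Tnnc1) with the 75th percentile shift, with the filter on signal above background, and without replicate 3 or 4. The share of all tested probes past that threshold was 14.0% to 18.1% in these settings and the random block. Probes with 1 direction in all pairs numbered 2755. They were 3392 to 4502 when a replicate was left out, which leaves fewer pairs to match. In place of the exact p, the normal approximation passed 4591 probes, which need not have 1 direction in all pairs, and the adjusted exact p passed 0. The medians of the partner lists differed by less than their spread over pairs in 77 of 78 settings, the exception being the heart genes with the 75th percentile shift (-0.21 against -0.07). Signal at background limits Tnni1, for which normexp correction gave -1.47 against -2.99.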
